A study of Mus musculus with 6 samples.

Results

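Disallowed genes are genes that most tissues express but that mature pancreatic beta cells hold at low levels. The 10 genes described here were taken by symbol from the 34245 genes of the deposited table: Ldha, Slc16a1, Acot7, Oat, Pdgfra, Cxcl12, Igfbp4, Maf, Smad3 and Lmo4. All 10 were listed, each at a single locus. Poly(A) RNA of whole pancreatic islets had been sequenced from C57BL/6J mice aged 5 weeks, with 1 library per animal code. For 3 libraries (KO, Abca12 tm1d), a conditional floxed allele of Abca12, an ABCA lipid transporter gene, had been deleted by Rip1-Cre. Mice of the other 3 libraries (HET) were heterozygous for the floxed allele and carried Rip1-Cre as well. In Rip1-Cre mice, rat insulin promoter sequence drives the recombinase, so both groups express Cre in beta cells and the deletion is limited to cells in which that promoter is active.

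The best known disallowed genes concern lactate. Ldha encodes the lactate dehydrogenase subunit that favours conversion of pyruvate to lactate, and Slc16a1 encodes MCT1, a plasma membrane carrier of lactate and pyruvate. Low levels of both direct pyruvate from glycolysis into mitochondria, and keep circulating pyruvate, as in exercise, from triggering insulin release. Acot7 cleaves acyl-CoA, Oat interconverts ornithine and glutamate semialdehyde, and Pdgfra, Cxcl12, Igfbp4 and Smad3 belong to growth factor and chemokine signalling. Maf and Lmo4 act in transcription.

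Sequences upstream of the lactate genes are shown first, because they alone among the members' windows held CACGTG. The windows run from 250 bases before to 50 bases after a RefSeq transcript start (GRCm38.p6). Capitals mark this motif, the E-box, which reads the same on both strands. The Ldha window is chr7:46845554-46845853, plus strand, and the Slc16a1 window is chr3:104638414-104638713, plus strand.
Ldha: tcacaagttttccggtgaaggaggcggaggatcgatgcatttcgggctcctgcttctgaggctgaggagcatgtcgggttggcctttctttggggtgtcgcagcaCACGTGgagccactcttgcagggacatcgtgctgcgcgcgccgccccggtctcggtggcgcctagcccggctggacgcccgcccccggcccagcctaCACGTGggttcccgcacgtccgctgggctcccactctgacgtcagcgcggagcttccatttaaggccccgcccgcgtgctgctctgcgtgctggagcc
Slc16a1: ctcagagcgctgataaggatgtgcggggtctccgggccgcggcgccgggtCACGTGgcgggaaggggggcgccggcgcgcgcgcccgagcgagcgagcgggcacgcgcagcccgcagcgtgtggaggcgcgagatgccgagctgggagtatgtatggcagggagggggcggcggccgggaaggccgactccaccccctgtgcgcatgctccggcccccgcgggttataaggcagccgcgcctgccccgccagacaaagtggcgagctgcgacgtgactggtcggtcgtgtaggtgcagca
The Ldha window held 2 E-boxes, whose first bases lay 145 and 48 bases before the start, and the Slc16a1 window held 1, at 200 bases before the start. RefSeq promoters were found for 9 of the 10 genes, in 12 windows, and CACGTG was present in 2 of the 12. Over all 32851 promoter windows of this length, 7.15% held it. GGGCGG, the GC box, was present on either strand in 9 of the 12 windows, from 7 of the 9 genes, against 35.7% of all windows. TATAAA was found, on either strand, in 1 of the 12 windows, that of Igfbp4, against 13.6% of all windows. TGACGTCA, the cAMP response element, was found in 1 of the 12 windows, from Ldha, against 1.79% of all windows. No match to another of these motifs overlapped a CACGTG. The 12 windows held 5 to 52 CpG dinucleotides, where the median over all windows was 7, and the lowest count was that of Pdgfra. The motifs were chosen with the sequences in view, and a match describes letters only.

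The RPM denominators of the 6 libraries were 27447026 to 35511008 reads, so 3 reads correspond to 0.0845 to 0.109 RPM, the scale on which a gene's reads are set against its library's denominator. Abca12 itself held 2 reads in KO 1 and 0 in the other 5 libraries, so its loss was not detectable at this depth. KO 2 held both Xist (459.3 RPM) and the Y-linked Ddx3y (49.8 RPM), so RNA of more than 1 animal in that library cannot be told apart from a single source. KO 1 and HET 2 held Xist (329.3 and 295.5 RPM) and 0 RPM of 4 Y-linked genes, and KO 3, HET 1 and HET 3 held Ddx3y (53.6, 102.02 and 49.7 RPM) with Xist at 0.162 RPM or less, so both groups mixed Xist-expressing and Y-bearing libraries. The summed levels of 10 beta cell markers lay between 108364 and 141301 RPM in the KO libraries and between 109816 and 117309 RPM in the HET libraries, and none of these markers was at 0. RNA of 12 acinar marker genes, which come from exocrine cells carried along with islets, summed to between 875.3 and 13385 RPM in the KO libraries and to between 444.1 and 32140 RPM in the HET libraries. In bulk islets, fewer cells of a type and less RNA per cell cannot be told apart, and the members' reads cannot be assigned to beta cells.

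Per length, disallowed genes were spread over a wide range of levels. The scale is RPM per kb of annotated exon, as the mean over 6 libraries. Oat was highest at 6.15 ± 1.85 RPM per kb (SD over 6 libraries), followed by Ldha at 3.31 ± 0.700. The median of the 12591 genes above the filter with a known length was 3.67 RPM per kb, so Oat and Ldha lay near the middle of the islet transcriptome, at percentiles 65.8 and 46.6. Acot7 (1.79 ± 0.836), Lmo4 (1.24 ± 0.330) and Smad3 (1.11 ± 0.213) formed a middle group at percentiles 29.6, 21.98 and 20.1. Slc16a1 (0.446 ± 0.229), Igfbp4 (0.336 ± 0.245) and Cxcl12 (0.219 ± 0.0559) were at percentiles 6.98, 4.38 and 1.74. Maf (0.0769 ± 0.0322) and Pdgfra (0.0334 ± 0.0431) were lower still and had means under 1 RPM, the filter for testing.

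Neighbours in this order were often not separated. The lowest library of Smad3 lay above the highest library of Slc16a1, and the same held between Cxcl12 and Maf. Ranges over the 6 libraries overlapped for all 7 other neighbouring pairs. Igfbp4 exceeded Cxcl12 in 3 of 6 libraries and Lmo4 exceeded Smad3 in 4 of 6. With the length of the transcript holding the longest coding sequence, Lmo4 (2.62 RPM per kb) lay above Acot7 (2.53), and the order was otherwise unchanged.

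Genes of the members' pathways lay on both sides of them in level per kb, as a mean over 6 libraries. Of 27 genes of pyruvate and lactate handling, 22 lay above Ldha and 25 above Slc16a1. Of 10 ornithine, proline and glutamate genes with a known length, 7 lay above Oat. Of 12 TGF-beta pathway genes with a known length, 9 lay above Smad3. Among genes with a known length, the count was 3 of 9 thioesterase genes for Acot7 and 6 of 11 IGF system genes for Igfbp4. It was 3 of 6 LIM-only genes and partners for Lmo4 and 3 of 4 MAF genes for Maf. The MAF count leaves out Mafa and Maff, of unknown length, at 99.8 and 32.3 RPM, beside 0.634 RPM for Maf. All 5 PDGF genes with a known length lay above Pdgfra, and all 3 genes for CXCL12 receptors and its protease above Cxcl12. No test was run on these counts. The percentiles above give, for 8 members, the share of genes above the filter with a known length that lay below the member. For Maf and Pdgfra that share was 0.0477% and 0%. The genes named next are examples, chosen for a high level or after their values were seen.

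Pkm, which makes pyruvate, had 88.6 ± 15.8 RPM per kb, 26.8 times Ldha, and the cytosolic malate dehydrogenase gene Mdh1 had 79.1 ± 8.51, 23.9 times Ldha. The heart-type lactate dehydrogenase gene Ldhb was at 4.86 ± 0.922 RPM per kb, above Ldha in 6 of 6 libraries. That order rests on the lengths used: per kb of the longest-coding transcript, Ldhb was 0.969 times Ldha and higher in 3 of 6 libraries. The carriers Slc16a3 and Slc16a7 were also low, at 0.353 ± 0.299 and 0.199 ± 0.0657 RPM per kb. Basigin (Bsg) and embigin (Emb), the membrane chaperones of these carriers, were at 137.9 ± 22.8 and 39.8 ± 7.09 RPM per kb, 309.1 and 89.2 times Slc16a1. Each chaperone exceeded Slc16a1 in 6 of 6 libraries.

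**Figure D1:**
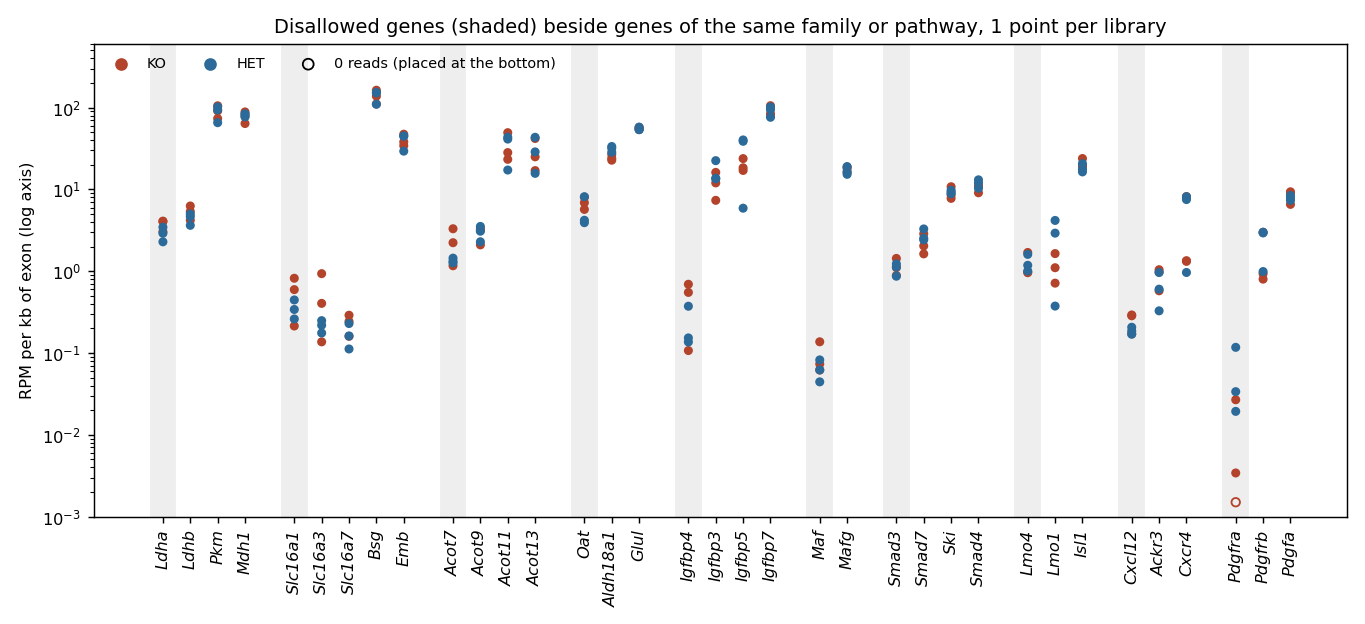
Level of each disallowed gene (shaded) and of genes chosen from its family or pathway, most of them for a high level, in RPM per kb of exon on a log axis, with 1 point per library (KO red, HET blue, open symbol for 0 reads). Bsg lies near 137.9 RPM per kb and Slc16a1 near 0.446, while Ldhb lies close to Ldha.

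Among the thioesterase genes Acot7 had both higher and lower relatives. Acot11 and Acot13, further acyl-CoA thioesterase genes, were at 33.8 ± 12.7 and 28.6 ± 11.9 RPM per kb, 18.9 and 16.002 times Acot7, whereas Acot2 and Acot4 were at 1.09 and 0.208 RPM per kb, below Acot7 (1.79). The binding protein genes Igfbp7, Igfbp5 and Igfbp3 were at 90.3 ± 12.03, 24.04 ± 13.3 and 14.2 ± 4.996 RPM per kb, 269.1, 71.6 and 42.3 times Igfbp4, while Igfbp6 and Igfbp2 were below it at 0.110 and 0.0303 RPM per kb. Mafg, a small MAF factor gene, was at 17.3 ± 1.54 RPM per kb, 225.1 times Maf. Smad4, the shared partner of receptor SMADs, was at 11.1 ± 1.38 RPM per kb, 9.996 times Smad3, and the receptor gene Tgfbr2 was at 0.771, below it. Isl1, an islet LIM homeodomain factor gene, was 15.7 times Lmo4. Lmo1 was at 1.82 ± 1.46 RPM per kb and above Lmo4 in 4 of 6 libraries, and Lmo2 and Lmo3 were at 0.639 and 0.142. Pdgfrb was 58.1 times Pdgfra, and the CXCL12 receptor gene Cxcr4 was 20.96 times its ligand's gene.

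The KO and HET islets were compared by genotype label, as Abca12 RNA was too low to show its loss. No disallowed gene passed limma's moderated test with Benjamini-Hochberg adjustment over all 14238 genes tested, of which 0% were called. The adjusted p was 0.9998 for each of the 8 members above the filter, and 0.980 for Pdgfra and Maf in the fit with no filter. At an unadjusted p under 0.05, 0 of the 8 members and 250 of all genes were found, 1.29% of all genes higher and 0.471% lower in KO. These counts turned on single libraries: without KO 3 they were 3 of 8 members (Acot7, unadjusted p = 0.0087, Igfbp4, 0.0114, and Slc16a1, 0.0215) and 939 of all genes, and without HET 1 they were 1 of 8 (Oat, 0.0094) and 1702. Without any one of the other 4 libraries they were 0 of 8 and fewer than 250, with 84 as the lowest. No adjusted p passed in any of these limma fits. KO and HET ranges overlapped for all 10 members, whereas they did not overlap for 5.74% of all genes tested (4.2% higher and 1.54% lower in KO). The log2 mean was higher in KO for 7 of the 8 tested members and for 8 of all 10, against 51.4% of all genes. Igfbp4, counted among the higher ones, averaged 1.99 RPM in KO and 0.976 RPM in HET, so it passed the 1 RPM filter through KO. The median log2 difference of the 8 was 0.34, beside 0.01 over all genes.

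**Figure D2:**
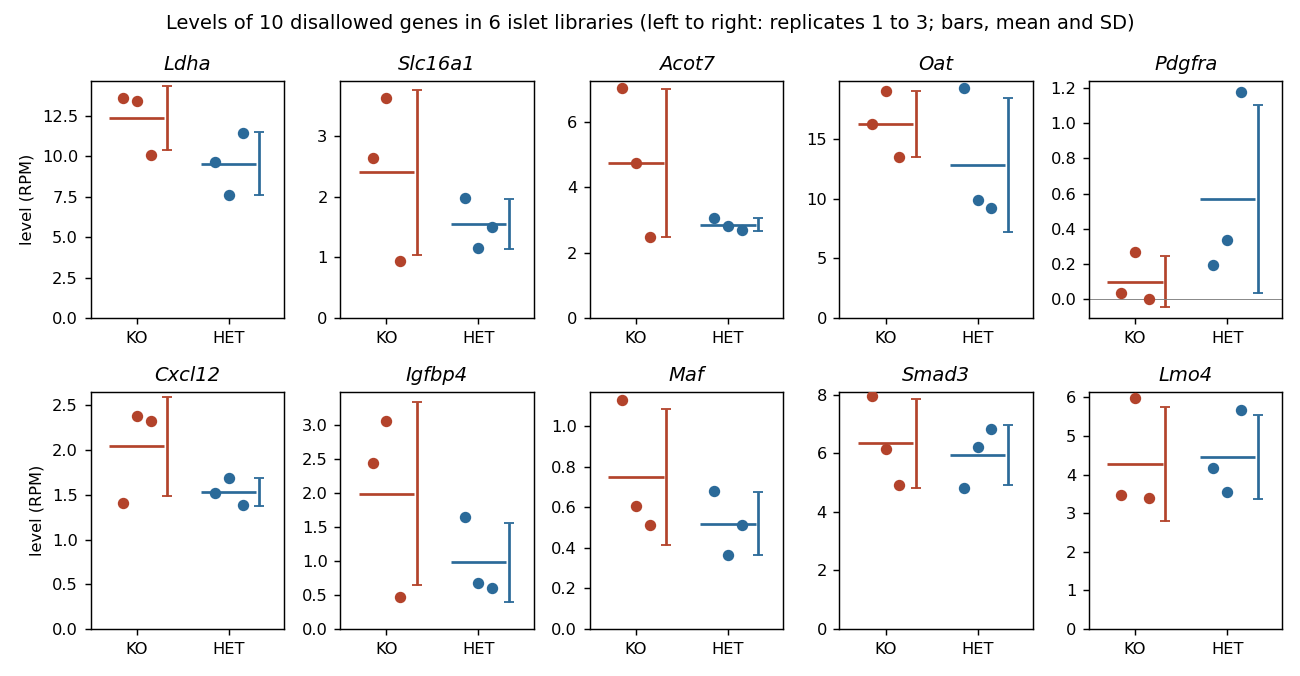
Level of each disallowed gene in RPM in the 3 KO and 3 HET libraries, with the mean as a line and the SD as a bar. KO and HET libraries overlap for every gene, and KO 3 lies below every HET library for Slc16a1, Acot7, Igfbp4, Lmo4 and Pdgfra.

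Ldha (ENSMUSG00000063229.15, chromosome 7, 46841475 to 46855627, GRCm38) had 13.6, 13.4 and 10.1 RPM in KO 1 to 3 and 9.63, 7.58 and 11.4 RPM in HET 1 to 3. KO 1 and KO 2 were the highest libraries, and KO 3 lay between HET 1 and HET 3. The means were 12.3 ± 1.96 and 9.55 ± 1.93 RPM (SD, n = 3 each), and KO minus HET was 0.35 on the log2(RPM + 1) scale, with a 95% interval from -0.15 to 0.84. It was 0.20 without HET 2 and 0.47 without KO 3. These values rest on 269 to 398 reads per library. How reads shared with processed copies of Ldha elsewhere in the genome were counted is not given in the sources used here.

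Slc16a1 (ENSMUSG00000032902.1, chromosome 3, 104638668 to 104658462) had 2.64, 3.63 and 0.947 RPM in KO 1 to 3 and 1.97, 1.15 and 1.51 RPM in HET 1 to 3. KO thus held both the highest library, KO 2, and the lowest, KO 3. The means were 2.41 ± 1.36 and 1.54 ± 0.410 RPM (SD, n = 3 each), a log2 difference of 0.34 (-0.43 to 1.12) that was 0.08 without KO 2 and 0.70 without KO 3. Counts were 26 to 108 reads. Of 27 genes of pyruvate and lactate handling, 11 were higher and 16 lower in KO and none passed, and the median of their log2 differences was -0.01. Pkm differed by 0.06 (-0.51 to 0.63).

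Acot7 (ENSMUSG00000028937.14, chromosome 4, 152178134 to 152271855) had 7.02, 4.74 and 2.48 RPM in KO 1 to 3 and 3.07, 2.82 and 2.68 RPM in HET 1 to 3. The HET libraries lay close together, while the KO libraries reached from below to well above them. The means were 4.75 ± 2.27 and 2.86 ± 0.197 RPM (SD, n = 3 each), and the log2 difference of 0.49 (-0.21 to 1.20) was 0.21 without KO 1 and 0.82 without KO 3. Of 8 other thioesterase genes tested, 3 were higher and 5 lower, and none passed. Acot11 differed by 0.02 (-0.96 to 1.01) and Acot4 by 0.55 (0.02 to 1.07, unadjusted p = 0.0434).

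Oat (ENSMUSG00000030934.9, chromosome 7, 132557478 to 132576398, minus strand) had 16.2, 19.0 and 13.4 RPM in KO 1 to 3 and 19.2, 9.91 and 9.26 RPM in HET 1 to 3. HET 1 stood apart from the other controls and was the highest library of all. The means were 16.2 ± 2.76 and 12.8 ± 5.58 RPM (SD, n = 3 each), and the log2 difference of 0.38 (-0.29 to 1.05) was 0.69 without HET 1, 0.24 without HET 2 and 0.20 without HET 3. From highest to lowest, Oat ordered the libraries as HET 1, KO 2, KO 1, KO 3, HET 2 and HET 3, which is also the order of the summed acinar markers (32140, 13385, 3553, 875.3, 761.5 and 444.1 RPM). The part of acinar RNA in the Oat values was not tested. Of 10 other ornithine, proline and glutamate genes tested, 3 were higher and 7 lower, and none passed. Glul differed by 0.02 (-0.34 to 0.39) and Aldh18a1, which starts proline and ornithine synthesis from glutamate, by -0.35 (-0.73 to 0.03).

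**Figure D3:**
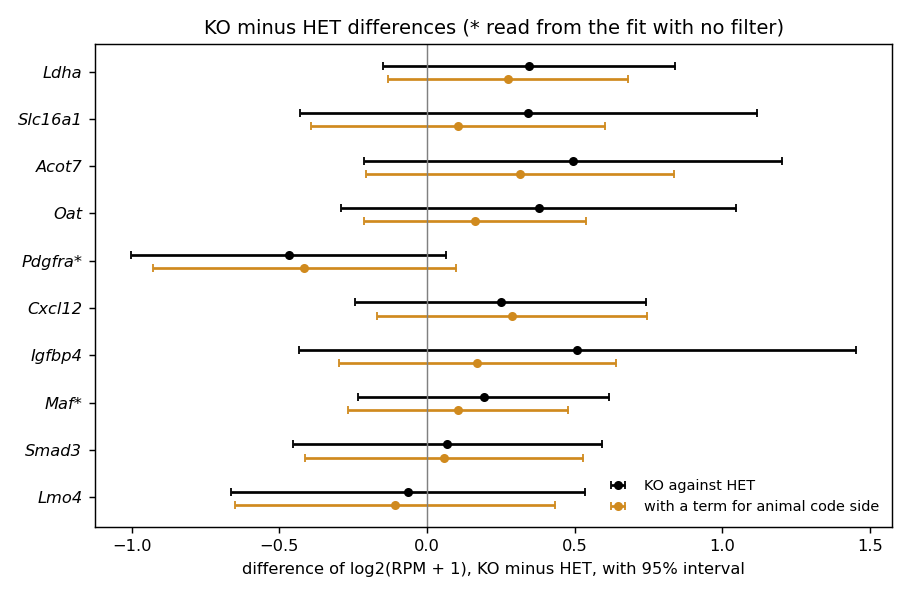
Difference in log2(RPM + 1) between KO and HET with its 95% interval for each disallowed gene (black), and with a term for animal code side added (orange). Every interval spans 0; Igfbp4 has the highest difference, 0.51, which becomes 0.17 with the term.

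Pdgfra, the PDGF receptor of mesenchymal cells, was close to the limit of detection. Pdgfra (ENSMUSG00000029231.15, chromosome 5, 75152292 to 75198215) had 1, 8 and 0 reads in the KO libraries 1 to 3, against 6, 12 and 39 in the HET libraries. A count of 0 in KO 3 allows up to 0.109 RPM. HET 3 was well above the other libraries and KO 2 lay among the controls. The means were 0.101 ± 0.146 and 0.569 ± 0.530 RPM (SD, n = 3 each), with a log2(RPM + 1) difference of -0.47 (-1.002 to 0.07), a scale that shrinks differences at such levels. It was -0.21 without HET 3 and -0.64 without HET 1. The summed level of 9 stellate and fibroblast markers was 52.5 RPM in HET 3, with at most 1 marker, Lum, at 0 in any library. That lay inside the 41.7 to 116.1 RPM of all HET libraries and the 50.2 to 160.9 RPM of KO. The markers in this sum differed in direction. Pdgfrb was at 16.1 RPM in HET 3 and at 4.39 to 5.43 RPM in KO 1, KO 2 and HET 1. Rgs5 was at 6.88 RPM in HET 3 and at 45.4 to 77.9 RPM in KO 1, KO 2 and HET 1. Of 6 other PDGF genes tested, 2 were higher and 4 lower, and none passed. Pdgfa, the leading ligand gene, differed by 0.07 (-0.36 to 0.50), and Pdgfd by 0.38 (-0.42 to 1.19).

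Cxcl12 encodes a chemokine made by stromal and endothelial cells. It (ENSMUSG00000061353.11, chromosome 6, 117168535 to 117181367) had 1.40, 2.39 and 2.33 RPM in KO 1 to 3 and 1.52, 1.69 and 1.39 RPM in HET 1 to 3. KO 2 and KO 3 were above every control, and KO 1 lay within them. The means were 2.04 ± 0.552 and 1.53 ± 0.152 RPM (SD, n = 3 each), and the log2 difference of 0.25 (-0.24 to 0.74) was 0.41 without KO 1 and 0.16 without KO 2. The summed level of 8 endothelial markers ran from 213.3 to 265.1 RPM in the KO libraries and from 212.6 to 238.1 RPM in the HET libraries, with none at 0. Of 3 genes for CXCL12 receptors and its protease, 1 was higher and 2 lower, and none passed. Ackr3, the scavenging receptor, differed by 0.36 (-0.35 to 1.06) and Dpp4, which cleaves CXCL12, by -0.14 (-1.37 to 1.09).

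Igfbp4, a secreted binding protein of insulin-like growth factors, had the widest spread of the members above the filter, with an SD of 0.62 on the log2(RPM + 1) scale over the 6 libraries, beside a median SD of 0.27 over all genes tested. Igfbp4 (ENSMUSG00000017493.12, chromosome 11, 99041244 to 99054392) had 2.43, 3.06 and 0.474 RPM in KO 1 to 3 and 1.65, 0.676 and 0.603 RPM in HET 1 to 3. KO again held the highest and the lowest library, 6.46-fold apart. The means were 1.99 ± 1.35 and 0.976 ± 0.584 RPM (SD, n = 3 each), and the log2 difference of 0.51 (-0.43 to 1.45) was 0.23 without KO 2 and 0.96 without KO 3. Of 8 other IGF system genes tested, 1 was higher and 7 were lower, the median of these log2 differences was -0.26, and none passed. The higher one was the growth factor gene Igf2 (0.56, 0.07 to 1.05, unadjusted p = 0.0306), while Igfbp5 differed by -0.11 (-1.86 to 1.65).

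Smad3, a transcription factor activated by TGF-beta receptors, showed no direction that held across the libraries. Smad3 (ENSMUSG00000032402.12, chromosome 9, 63646767 to 63757994, minus strand) had 7.95, 6.15 and 4.92 RPM in KO 1 to 3 and 4.82, 6.22 and 6.82 RPM in HET 1 to 3. The ranges were nearly the same in both groups apart from KO 1. The means were 6.34 ± 1.52 and 5.95 ± 1.03 RPM (SD, n = 3 each), and the log2 difference of 0.07 (-0.45 to 0.59) was -0.08 without KO 1, -0.05 without HET 1 and 0.21 without KO 3. Of 14 other TGF-beta pathway genes, 9 were higher and 5 lower, and none passed. Ski, a SMAD repressor gene, differed by -0.05 (-0.46 to 0.35).

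Maf encodes a large MAF transcription factor. Maf (ENSMUSG00000055435.6, chromosome 8, 115682942 to 115707794, minus strand) had 33, 18 and 14 reads in the KO libraries 1 to 3, against 21, 13 and 17 in the HET libraries. KO 1 was highest and HET 2 lowest. The means were 0.749 ± 0.334 and 0.519 ± 0.156 RPM (SD, n = 3 each), with a log2 difference of 0.19 (-0.23 to 0.62) that was 0.04 without KO 1, 0.12 without HET 2 and 0.29 without KO 3. Annotated exons of the antisense gene Gm15655 share 440 bases with Maf and held 0.0446 RPM on average, and the strandedness of the libraries is not given in the sources used here. Macrophages also express Maf, and 8 macrophage markers summed to between 91.5 and 134.2 RPM in the KO libraries and to between 91.97 and 135.1 RPM in the HET libraries, with none at 0. Of 5 other MAF genes tested, 4 were higher and 1 lower, and none passed. Mafa, the insulin gene activator of mature beta cells, differed by -0.57 (-1.70 to 0.56).

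Lmo4, a LIM-only adaptor of transcription complexes, had 3.46, 5.99 and 3.39 RPM in KO 1 to 3 and 4.17, 3.55 and 5.67 RPM in HET 1 to 3. Lmo4 (ENSMUSG00000028266.17) lies on chromosome 3, 144188530 to 144205220, minus strand. KO 2 and HET 3 were the high libraries, 1 in each group. The means were 4.28 ± 1.48 and 4.46 ± 1.09 RPM (SD, n = 3 each), and the log2 difference of -0.07 (-0.67 to 0.53) was 0.04 without KO 1, 0.05 without KO 3 and 0.09 without HET 3, and -0.29 without KO 2. Of 6 other LIM-only genes and partners tested, 2 were higher and 4 lower, and none passed. The gene of this list with the highest level and the lowest p was Isl1, at 0.18 (-0.23 to 0.59).

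Libraries separated by animal code for disallowed genes about as often as for all genes. The labels give the animal codes B114, B123 and B125 to KO 1, HET 1 and KO 2, and B126, B127 and B130 to HET 2, HET 3 and KO 3, and a split between these 2 sets was known from earlier results. Slc16a1, Acot7, Oat and Igfbp4 were higher in each of the 3 low-code libraries than in any high-code library, 4 of the 8 tested members, beside 16.8% of all genes tested. None of the 8 was higher in every high-code library, beside 31.3% of all genes. In either direction the share was 4 of 8 members and 48.1% of all genes. Igfbp4 averaged 2.38 RPM at low and 0.584 RPM at high codes, so it passed the 1 RPM filter through its low-code libraries. Maf, under the filter, was also higher in each low-code library. Mean RPM at low over high codes was 4.07-fold for Igfbp4, 2.28-fold for Slc16a1, 1.86-fold for Acot7, 1.74-fold for Maf and 1.67-fold for Oat. It was 1.26-fold for Ldha, 1.08-fold for Lmo4, 1.05-fold for Smad3 and 0.982-fold for Cxcl12, all with overlapping ranges. Pdgfra went the other way at 0.328-fold, which rests on HET 3. What the codes stand for is not in the labels.

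Marker sums of other cell types split by code as well, in 6 of 9 lists. Acinar sums were higher in each low-code library (3553 to 32140 RPM) than in any high-code library (444.1 to 875.3 RPM). The same held for the sums of 9 stellate and fibroblast markers (84.7 to 160.9 against 41.7 to 52.5 RPM) and 6 Schwann cell markers (8.44 to 20.8 against 6.05 to 7.65 RPM, with up to 2 at 0). Rgs5 led the stellate sum (45.4 to 77.9 against 6.88 to 13.1 RPM), and Dcn, Lum and Acta2 went with it. Pdgfrb (4.39 to 5.43 against 16.1 to 16.4 RPM) and Cspg4 (1.27 to 2.62 against 3.97 to 6.16 RPM) were lower in each low-code library. The collagen genes of that list overlapped. Sums were lower at low codes for 6 alpha cell markers (10785 to 16256 against 16830 to 30554 RPM). They were also lower for 6 duct markers (197.3 to 258.8 against 371.9 to 481.1 RPM) and 8 macrophage markers (91.5 to 119.5 against 125.5 to 135.1 RPM). The duct sum followed Krt7 (97.9 to 131.4 against 276.2 to 337.5 RPM), while Krt19, Sox9 and Muc1 were higher in each low-code library. The macrophage sum followed Cd68 (3.50 to 4.69 against 16.9 to 29.5 RPM) and Lyz2. Adgre1, C1qc and Csf1r were higher in each low-code library. The other markers of both lists overlapped between the sides. Beta cell, delta and PP cell, and endothelial sums overlapped between the sides. The beta cell sum followed Ins1 and Ins2, which overlapped. G6pc2 (1675 to 2476 against 889.0 to 1060 RPM), Slc30a8 and Nkx6-1 were higher in each low-code library. Iapp and Mafa (49.3 to 70.6 against 94.4 to 193.7 RPM) were lower in each low-code library, and the other beta cell markers overlapped. Flt1 and Tie1 of the endothelial list were higher in each low-code library, and Kdr, Hhex and Rbp4 were lower. The part of any of these cell types in the members' differences was not tested.

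**Figure D4:**
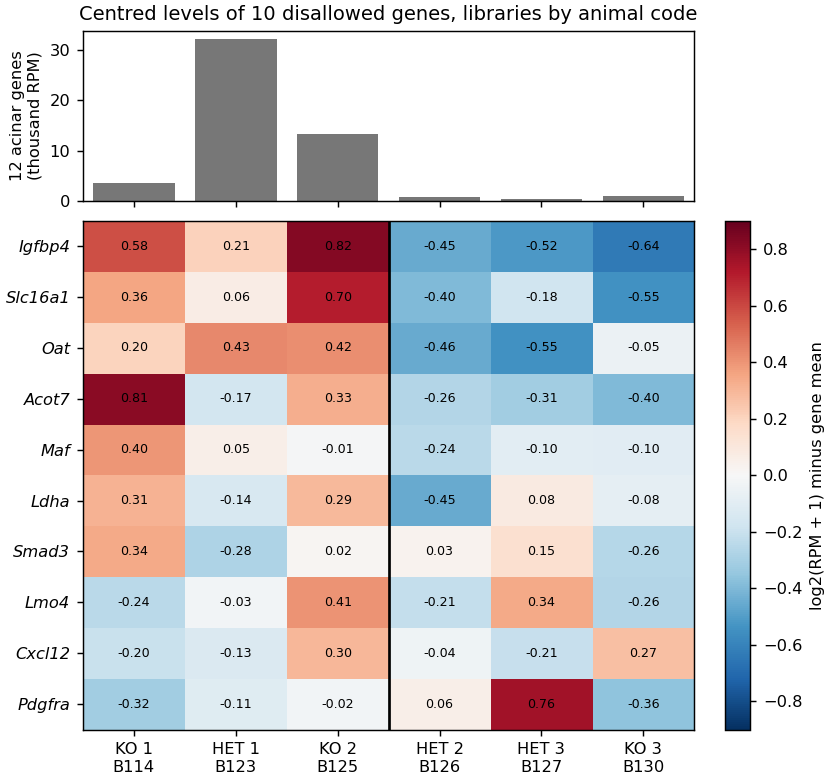
Lower panel, log2(RPM + 1) of each disallowed gene minus its mean over the 6 libraries, ordered by animal code, with a line between B125 and B126; upper panel, summed level of 12 acinar genes. Igfbp4 and Slc16a1 reach 0.82 and 0.70 in KO 2 and fall to -0.64 and -0.55 in KO 3, and HET 1 holds the highest acinar sum, 32140 RPM.

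Within each set of codes, KO and HET differed in sign for several members. At low codes, with 2 KO libraries and 1 HET library, the log2 differences of Slc16a1, Acot7, Igfbp4 and Smad3 were 0.47, 0.74, 0.50 and 0.46. At high codes, with 1 KO library and 2 HET libraries, they were -0.26, -0.11, -0.15 and -0.34. Ldha was higher in KO on both sides, by 0.44 and 0.10, as were Cxcl12, by 0.18 and 0.39, and Maf, by 0.14 and 0.07. Pdgfra was lower in KO on both sides, with differences of -0.06 and -0.77. Oat differed by -0.13 at low codes and 0.45 at high codes, and Lmo4 by 0.11 and -0.33. No test was run within a side, where 1 group has a lone library, and the difference between the sides was not tested. With the side as a term in limma, the differences were 0.11 for Slc16a1, 0.17 for Igfbp4, 0.31 for Acot7 and 0.16 for Oat, with an adjusted p of at least 0.94 for all 10 members, and 0% of all genes passed.

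A wider set of 18 further genes described as repressed in beta cells also held no call. Of 16 tested, 13 had higher means in KO and 3 had lower ones, against 51.4% higher among all genes. None passed, and the median of these log2 differences was 0.26, beside 0.01 over all genes. The summed level of the 18 genes was higher in each low-code library (189.2 to 229.5 RPM), of which 2 of 3 were KO, than in any high-code library (129.1 to 151.03 RPM). The part of this split in the KO counts was not tested. Ltbp3, a latent TGF-beta binding protein gene, differed by 0.09 (-0.29 to 0.46), and the Hippo pathway coactivator gene Yap1 by 0.65 (-0.12 to 1.41). Hk1, a hexokinase gene, differed by 0.26 (-0.32 to 0.84). Rest, the repressor of neuronal genes that is off in islet cells, held 5.11 RPM in KO 2 and 1.42 to 2.59 RPM in the other 5 libraries. Hk1 and Rest were named after their values were seen.

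The genes with profiles most like those of the lactate genes were sought among 8809 other genes of at least 10 RPM. Likeness was the root-mean-square difference of centred log2(RPM + 1) values over the 6 libraries. For Ldha these were Cuedc1 (0.0805), Clcn2, a chloride channel gene (0.0830), and Rhoc, a small GTPase gene (0.0843), where the median over all genes was 0.374. For Slc16a1, compared with 8810 genes, they were Vasn (0.0907), Dzip1l (0.103) and Trp53bp2 (0.114), against a median of 0.524. With 6 libraries, such matches are a description only.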

How the data were processed

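The GRCm38 build, HISAT2 and DESeq2 are listed, without version or role, per the submitters' processing notes. The sources used here do not give counting, annotation or strandedness. The authors deposited log2 values by gene and library, with their group means, log2 difference and HET over KO ratio (fold change), none of which is used here beyond the library values. Genes without reads share the lowest value of a library, equal to 0.9 read. Values under 1000 reads (93649) were whole reads to within 0.01 in 100% of cases. The log2 values are therefore taken as log2 RPM, and genes without reads as 0. The listed genes held 18885055 to 23504922 reads per library. Limits on counts cover counting error only. A deposited sheet of 3 genes was not used.

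Groups follow the genotype labels. Replicates were numbered in the order of the records and pair nothing. Each library has its own animal code, but whether libraries are otherwise separate preparations is not stated, so p-values measure the spread between these libraries. The design allowed for counts or log2 values; the moderated test of limma 3.58.1 under R 4.3.3, with a fitted trend and robust variances, was run on log2(RPM + 1) for the 14238 genes averaging 1 RPM or more, with Benjamini-Hochberg adjustment and a threshold of 0.05. Pdgfra and Maf, below that filter, were read from the fit with no filter (22694 genes), a choice made after seeing the data. The test was checked on simulated data with larger changes than those of the members, which leaves differences of the members' size unchecked. Positions of 29416 genes (85.9%) matched GENCODE M21, whose exons gave lengths and identifiers; promoters are from RefSeq (GRCm38.p6). The members and lists were chosen with earlier results of these data known. Named genes are the members, the highest-RPM and lowest-p gene of each list, 3 like profiles for Ldha and Slc16a1 each, and partners identified as picked later; some results under this rule are not reported here. Alternatives were another pseudocount, no filter, median-of-ratios and upper quartile scaling, limma-voom on recovered reads, a term for animal code side, leaving out each library and another gene length. Figures were drawn with matplotlib 3.10.9.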

Additional observations from a re-analysis of the deposited data

How the results depend on the processing

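No gene and no disallowed gene passed the threshold under the pseudocount of 0.1 RPM, no filter, median-of-ratios or upper quartile scaling, limma-voom, the term for animal code side, or without any single library; the lowest adjusted p of a member over these fits was 0.395. The number of all genes with an unadjusted p under 0.05 was 242 to 266 with the other pseudocount, scalings or limma-voom, 564 with no filter, 767 with the code term and 84 to 1702 without 1 library. Pdgfra was under 0.05 unadjusted with the pseudocount of 0.1 RPM, by limma-voom and without HET 1. The number of members with a higher mean in KO was 7 to 9 of 10 when 1 library was left out, and 8 under each other alternative. The share of all genes higher in KO was 44.4% to 58.9% when 1 library was left out. It was 46.6% to 60.1% under the other alternatives. Of the members' values under alternatives, 115 kept their sign and stayed short of the threshold and 5 reversed, all by leaving out 1 library: Smad3 ranged from -0.084 to 0.21 and Lmo4 from -0.29 to 0.087. Pdgfra was -1.68 with the pseudocount of 0.1 RPM and -2.79 by limma-voom, whose scales shrink low levels less. Per kb of the longest-coding transcript, chosen after seeing the data, Ldhb over Ldha became 0.969 and Lmo1 over Lmo4 0.843. Of the larger ratios named above, some moved by more than their SD over libraries. Mdh1 over Ldha went from 23.9 to 15.9, Emb over Slc16a1 from 89.2 to 210.8 and Mafg over Maf from 225.1 to 100.4. No scaling moved the median difference of all genes by over 0.1; it lay between -0.02 and 0.01. No paired analysis was possible because the labels give no replicate numbers that the groups share. Maf and Pdgfra rest on at most 33 and 39 reads per library, which limits both.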
